A study of Homo sapiens with 8 samples.

Results

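The 9 SOX transcription factor genes SOX2, SOX4, SOX5, SOX6, SOX9, SOX11, SOX12, SOX13 and SOX21 were followed across RNA sequencing of 2 prostate cancer cell lines with raised or lowered MYCL. They were chosen by gene name from a count table of 78691 genes, and each name had 1 row. C4-2B cells, a castration-resistant adenocarcinoma line, were transduced with an empty lentiviral vector, as control, or with a lentivirus in which the EF1A promoter drives human MYCL joined to EGFP (MYCL group). NCI-H660 cells, a neuroendocrine prostate cancer line, received a non-targeting shRNA (shCtrl) or shRNA against MYCL (shMYCL). The design text names an adenoviral vector for this knockdown and the labels speak of stable knockdown, so the vector behind these libraries is not settled here. Each of the 4 groups had 2 libraries, with 15177071 to 32344170 counts per library.

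SOX proteins bind DNA through a high-mobility-group domain and usually act together with a partner factor. SOX2, of the SOXB1 group, keeps neural and other progenitors undifferentiated and has been linked to lineage plasticity of prostate cancer, while SOX21, of the SOXB2 group, opposes SOXB1 factors during neuronal differentiation. SOX4, SOX11 and SOX12 form the SOXC group, which acts in neuronal differentiation and is often raised in tumors. SOX5, SOX6 and SOX13 form the SOXD group, which lacks an activation domain of its own, and SOX9, of the SOXE group, acts in cartilage, stem cells and the budding prostate epithelium. MYCL encodes L-MYC, a MYC family factor that binds E-boxes as a dimer with MAX.

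The MYCL gene itself followed the labels. It had 371 and 320 counts in C4-2B control libraries against 65524 and 70253 with the MYCL vector. In NCI-H660 cells it had 1863 and 1602 counts with shCtrl against 165 and 198 with shMYCL. Its log2 fold change was 8.26 ± 0.12 (SE) in C4-2B cells and -3.06 ± 0.15 in NCI-H660 cells, so the knockdown left MYCL 8.35-fold lower. The C4-2B value includes the vector transcript, and the control NCI-H660 level stayed below that of the MYCL-expressing C4-2B libraries.

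Most lineage markers, but not all, differed as the names of the lines would have it. The neuroendocrine genes NCAM1 and INSM1 were at 0 counts in all C4-2B libraries and at 149 to 150 and 54.7 to 55.2 CPM in the shCtrl libraries (CPM being counts scaled by the TMM-adjusted library size). The luminal genes KLK3, KLK2 and FOLH1 were at 0 counts in all NCI-H660 libraries, and HOXB13 was at 0 or 1 count there. Other luminal markers did not separate the lines this way. KRT8, a luminal keratin, was higher in shCtrl (707 and 742 CPM) than in C4-2B control libraries (453 and 411 CPM; log2 fold change 0.75). Its partner keratin KRT18 (293 and 315 against 335 and 328 CPM) and the pioneer factor FOXA1 (268 and 237 against 274 and 275 CPM) were not called. These 3 genes, named after their values were seen, hold most of the luminal level of the shCtrl libraries. Over the 10 luminal markers, 3 of them at 0, the summed level was 1270 to 1296 CPM in shCtrl against 4984 to 5052 CPM in C4-2B control libraries. Over the 9 neuroendocrine markers it was 1677 to 1804 CPM in shCtrl libraries and 11.5 in both C4-2B control libraries, where 4 of them were at 0.

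Sequence upstream of the transcription start is shown for the genes that fell on MYCL knockdown (described further on) and have an entry in the promoter table used. SOX9, which fell as well, has no entry, nor has SOX11. The 250 bases before the start are given 5′ to 3′ on the gene's strand from RefSeq on GRCh38.p14, at chr3:181711675-181711924 (plus strand) for SOX2, chr6:21593501-21593750 (plus) for SOX4 and chr13:94712546-94712795 (minus) for SOX21. Capitals mark an ACAAAG SOX motif in SOX2 and CAGCTG E-boxes in SOX4.
SOX2: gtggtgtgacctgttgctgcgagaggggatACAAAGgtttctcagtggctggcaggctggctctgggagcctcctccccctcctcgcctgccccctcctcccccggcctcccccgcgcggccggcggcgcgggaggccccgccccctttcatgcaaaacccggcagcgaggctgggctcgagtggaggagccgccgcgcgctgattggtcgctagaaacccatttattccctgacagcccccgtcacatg
SOX4: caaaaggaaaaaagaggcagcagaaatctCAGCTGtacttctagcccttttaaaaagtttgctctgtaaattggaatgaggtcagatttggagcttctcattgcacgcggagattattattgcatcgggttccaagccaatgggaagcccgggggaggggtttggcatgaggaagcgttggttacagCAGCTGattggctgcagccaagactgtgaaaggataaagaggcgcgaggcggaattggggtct
SOX21: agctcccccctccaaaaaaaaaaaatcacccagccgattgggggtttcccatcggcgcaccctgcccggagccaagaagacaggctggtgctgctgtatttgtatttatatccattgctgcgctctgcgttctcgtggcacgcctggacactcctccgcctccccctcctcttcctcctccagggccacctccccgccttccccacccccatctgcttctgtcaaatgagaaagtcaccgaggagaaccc
Both strands were searched for CACGTG, the E-box of MYC and MAX dimers, for CAGCTG, and for the SOX motifs ACAAAG and ACAATG. The letters CACGTG occurred in none of the 6 members with a single window, against 6.345% of all 35116 windows of this length. CAGCTG occurred in 13.99% of all windows and at 2 or more places in 1.27%; SOX4 had 2 and SOX13 had 1. ACAAAG occurred in 13.72% of windows and, among the 6 members, in SOX2, and ACAATG in 9.286% and in SOX5, which had 2. A window without a motif says only that these letters are not in those bases.

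SOX4 was the most abundant member per length in every library. In TPM, which divides counts by gene length, SOX4 stood at 42.8 and 44.03 in C4-2B control, 40.6 and 29.2 in C4-2B MYCL, 476 and 406 in shCtrl and 256 and 273 in shMYCL libraries. It made up between 65.1% and 77.9% of the summed TPM of the 9 genes in a library. That sum was 62.5 and 64.2 TPM in C4-2B control, 58.3 and 44.8 in C4-2B MYCL, 612 and 537 in shCtrl and 338 and 363 in shMYCL libraries. The total SOX transcript level was thus higher in every NCI-H660 library than in any C4-2B library, and lower in both shMYCL libraries than in both shCtrl libraries.

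The order below SOX4 differed between the lines. In C4-2B control cells SOX12 followed at a mean of 14.1 TPM, then SOX13 at 4.03, SOX9 at 1.49 and SOX11 at 0.260, with no overlap between the libraries of neighbors in this order. SOX6, SOX2, SOX5 and SOX21 were between 0 and 0.041 TPM there and could not be ordered. In shCtrl cells SOX2 came after SOX4 at a mean of 76.3 TPM, followed by SOX11 at 16.04 and SOX13 at 15.8, whose libraries overlapped. SOX12 at 12.4, SOX21 at 6.64 and SOX9 at 3.87 TPM came next, each apart from its neighbors, and SOX6 at 0.986 and SOX5 at 0.763 overlapped. After knockdown SOX13, at a mean of 18.0 TPM, stood above SOX11, at 15.4 TPM, and SOX5, at 1.29, stood above SOX6, at 0.547. Within each of these pairs the shCtrl libraries had overlapped, and none of these genes was called on knockdown (described further on).

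**Figure D1:**
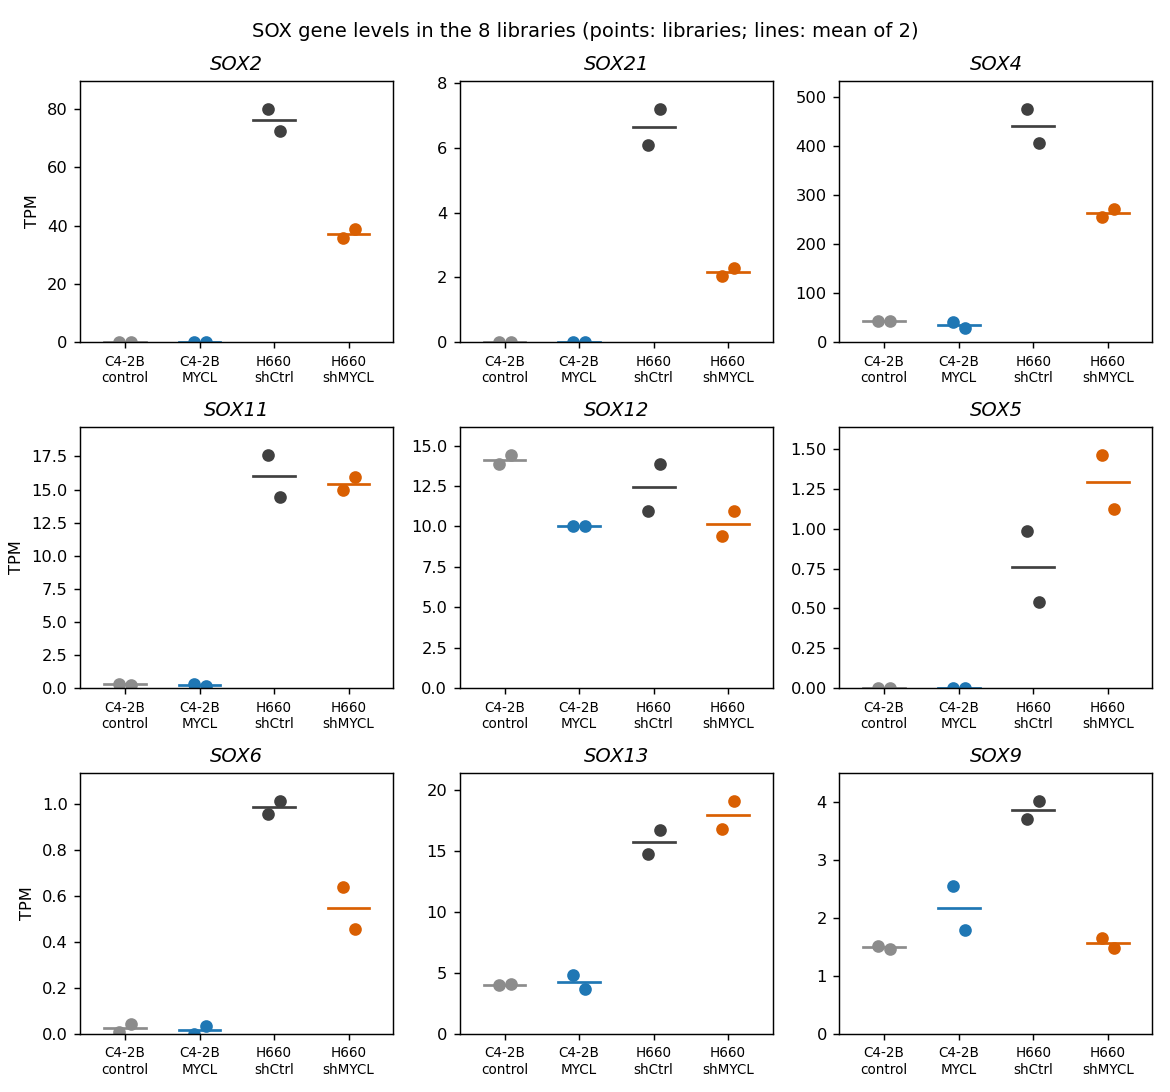
TPM (vertical axis, from 0, with its own scale for each gene) of the 9 SOX genes in the 4 groups on the horizontal axis; points are libraries and short lines the mean of 2. SOX2, SOX21, SOX4 and SOX9 lie lower in both shMYCL libraries than in both shCtrl libraries, while SOX2, SOX5 and SOX21 lie at or near 0 in C4-2B.

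The control libraries of the lines were compared first, to ask which SOX genes differ between the neuroendocrine and the adenocarcinoma line. Each tumor type is represented by a single line. Tumor type, cell line and vector (control shRNA against empty lentivirus) cannot be told apart here. Genes were called with edgeR's quasi-likelihood test at an adjusted p (Benjamini-Hochberg, over all genes tested) under 0.05 where log2 fold changes also reached 0.5 in either direction. By this rule 69.8% of 19605 genes differed between the lines (36.5% higher and 33.3% lower in NCI-H660). All 5 members that were tested within both lines were called, 4 higher and 1 lower, which has to be read against that background. Of all called genes, 52.2% were higher in NCI-H660 by counts and 71.1% by log2(TPM + 1), which shifted the median gene by 0.52.

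SOX2 had 1 and 0 counts in C4-2B control and 1833 and 1930 counts in shCtrl libraries. As a ratio of summed counts scaled by library size, this was 5352 with a 95% counting interval of 960 to 211451, which covers counting error only. SOX21 had 0 counts in both C4-2B control libraries against 165 and 227 with shCtrl, at least 186-fold higher when 3 counts over the control group are taken as the limit. Both SOXB genes were read in NCI-H660 libraries and, but for that single count, in none of the 4 C4-2B libraries. A count of 0 allows up to 0.0975 to 0.181 CPM in these 4 libraries.

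In the SOXC group, SOX11 was at 2.31 and 1.78 CPM in C4-2B control and at 88.4 and 76.5 CPM in shCtrl libraries. Its log2 fold change of 5.31 ± 0.16 (SE, n = 2 libraries per group; edgeR adjusted p = 3.25e-12) made it the member with the steepest rise among the 5. SOX4, at 177 and 181 CPM in C4-2B control and 1256 and 1133 CPM in shCtrl libraries, was higher by 2.74 ± 0.12 (edgeR adjusted p = 9.77e-11). SOX12 ran the other way, at 54.9 and 56.8 CPM in C4-2B control and 27.7 and 37.0 CPM in shCtrl libraries, a log2 fold change of -0.78 ± 0.13 (edgeR adjusted p = 8.51e-05). On log2(TPM + 1) with limma, SOX12 differed by -0.18 (adjusted p = 0.229) and was not called; relative to the shifted median of all genes this was -0.71.

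In the SOXD group, SOX13 was at 12.2 and 12.4 CPM in C4-2B control and at 29.8 and 36.4 CPM in shCtrl libraries, a log2 fold change of 1.43 ± 0.14 (edgeR adjusted p = 5.27e-07). SOX6 had 1 and 7 counts against 76 and 85, a ratio of 28.6 with a counting interval of 14.2 to 67.4. SOX5 had 0 counts in both C4-2B control libraries against 48 and 37, at least 40.3-fold higher. In the SOXE group, SOX9 was at 5.01 and 4.80 CPM in C4-2B control and 7.78 and 8.93 CPM in shCtrl libraries, and its log2 fold change was 0.77 ± 0.21 (edgeR adjusted p = 0.00508). SOX2, SOX5, SOX6 and SOX21 passed the filter on low counts only through NCI-H660 and so had to differ.

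**Figure D2:**
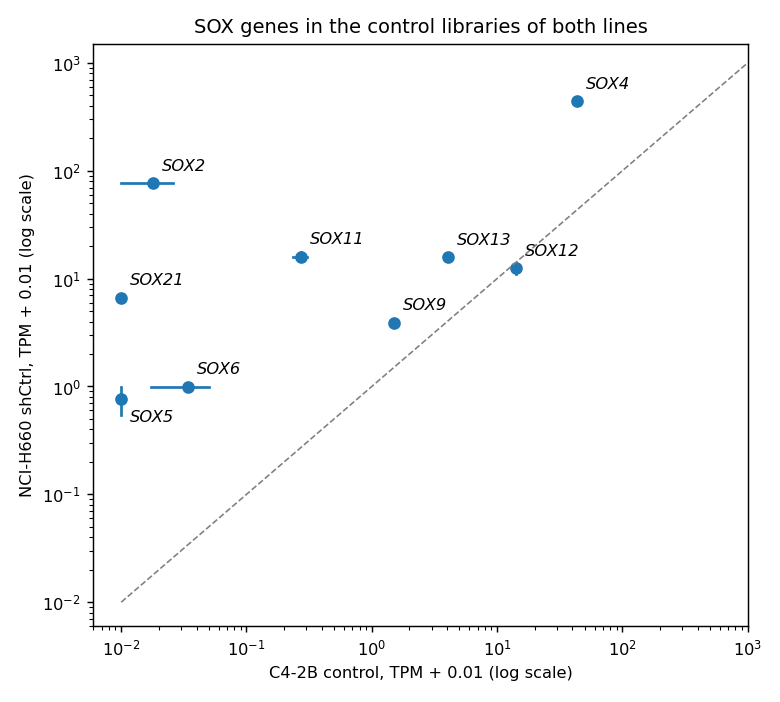
TPM + 0.01 of each SOX gene in C4-2B control (horizontal, log scale) against NCI-H660 shCtrl libraries (vertical, log scale); points are means of 2 libraries, bars join the libraries, and the dashed line marks equal levels. SOX12, at 14.1 against 12.4 TPM, lies just below the line and SOX2, SOX21 and SOX11 lie far above it.

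Knockdown of MYCL in NCI-H660 cells lowered 4 of the 9 SOX genes, SOX21, SOX9, SOX2 and SOX4, and called none of them higher. Over all 16980 genes tested, 8.99% were called lower and 7.18% higher (16.2% in all). The median log2 fold change of the 9 genes was -0.70, against -0.0029 over all genes. All 9 passed the filter on low counts in this line.

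Both SOXB genes fell. SOX2 went from 103 and 98.5 CPM with shCtrl to 46.8 and 51.4 CPM with shMYCL. Its log2 fold change was -1.04 ± 0.11 (95% interval -1.26 to -0.81; edgeR adjusted p = 8.71e-06), which is 2.05-fold lower. SOX21 went from 9.23 and 11.6 CPM to 3.18 and 3.57 CPM, a log2 fold change of -1.63 ± 0.22 (95% interval -2.09 to -1.16; edgeR adjusted p = 8.43e-05). At 3.09-fold lower, SOX21 had the largest decrease of the 9 genes in this fit.

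The SOXC genes did not move together. SOX4 went from 1256 and 1133 CPM with shCtrl to 691 and 739 CPM with shMYCL, 1.67-fold lower, with a log2 fold change of -0.74 ± 0.11 (edgeR adjusted p = 1.46e-04). SOX11 was at 88.4 and 76.5 CPM with shCtrl and at 76.9 and 81.9 CPM with shMYCL, so its groups overlapped. The SOX11 difference of -0.06 had a 95% interval of -0.29 to 0.18 (edgeR adjusted p = 0.752), an interval that lies outside that of SOX4 (-0.97 to -0.52). SOX12, at 27.7 and 37.0 against 24.3 and 28.4 CPM, also overlapped (log2 fold change -0.30 ± 0.15, edgeR adjusted p = 0.152).

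Of the SOXD genes none was called. SOX5 was at 2.69 and 1.89 CPM with shCtrl and at 4.18 and 3.94 CPM with shMYCL, a log2 fold change of 0.83 ± 0.31 that missed the threshold (edgeR adjusted p = 0.0636). It was past the threshold with at least 10 counts asked of every library (adjusted p = 0.0373) and without shCtrl replicate 1 (adjusted p = 0.0481, both edgeR). SOX6 was at 4.25 and 4.34 against 3.24 and 2.06 CPM (log2 fold change -0.70 ± 0.30, edgeR adjusted p = 0.104), and SOX13 at 29.8 and 36.4 against 33.7 and 39.1 CPM (0.13 ± 0.13, adjusted p = 0.508). The libraries of the groups were apart for SOX5 and SOX6 and overlapped for SOX13.

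SOX9 fell with knockdown, from 7.78 and 8.93 CPM to 3.56 and 3.21 CPM. Its log2 fold change was -1.31 ± 0.23 (95% interval -1.79 to -0.83; edgeR adjusted p = 6.84e-04), which is 2.48-fold lower. The 4 decreases were each called without any single library, by DESeq2 and on filtered TPM values, and were lost on log2(TPM + 1) without a filter, where 1 of 29413 genes was called at all. SOX4 lies under a log2 fold change of 1, a stricter minimum that the other 3 decreases pass.

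Long noncoding genes at the same loci were read too. SOX2 (chr3:181711925-181714436, plus strand, 1 exon) lies inside SOX2-OT on the same strand and shares no exon bases with it. SOX2-OT had 66 and 52 counts with shCtrl and 15 and 22 with shMYCL, a log2 fold change of -1.48 ± 0.39 (edgeR adjusted p = 0.0116). SOX21 (chr13:94709622-94712545, minus strand) lies in the span of SOX21-AS1, which had 125 and 129 against 60 and 65 counts (-0.82 ± 0.23, edgeR adjusted p = 0.0159). Both noncoding genes fell along with the SOX gene at their locus. SOX9-AS1, across SOX9 (chr17:72121020-72126416, plus strand), had 53 and 47 against 68 and 28 counts, with overlapping groups (edgeR adjusted p = 0.827). Whether reads were counted by strand is not given in the sources used here, so reads of a gene and its antisense partner may not be kept apart; SOX4 (chr6:21593751-21598619, plus strand) shares 168 exon bases with an antisense noncoding gene.

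Lineage markers moved in the same comparison. Of the 9 neuroendocrine markers, 2 were called, both lower, among them INSM1, which fell by 0.65 on the log2 scale. The other 7 were not called and went both ways. The summed level of the 9 was 1677 to 1804 CPM with shCtrl and 1346 to 1470 CPM with shMYCL. The luminal sum was 1270 to 1296 CPM with shCtrl and 1321 to 1355 CPM with shMYCL. COL1A2, a fibroblast marker with 0 counts in all C4-2B libraries, fell by 0.68 on the log2 scale, and the summed fibroblast list went from 108 to 111 CPM to 69.3 to 74.9 CPM, with 3 of 6 markers at 0. CDH5 of the 4 endothelial markers fell by 0.91, with an endothelial sum of 7.25 to 7.72 CPM in shCtrl and 2.85 to 5.12 CPM in shMYCL libraries, and no leukocyte marker was called. The libraries are of a cell line, so a marker named after another cell type does not show that such cells were there. The part of these changes in the SOX changes was not tested. Fewer expressing cells and less RNA per cell cannot be told apart in bulk libraries.

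With MYCL expression in C4-2B cells, 1 of the 5 SOX genes tested was called, SOX9, which was higher. Over all 16866 genes, 19.9% were called (11.8% higher and 8.12% lower), so the share among the SOX genes was at the background. By edgeR, 59.2% of all called genes were higher, against 33.5% with log2(TPM + 1) values, which shifted the median gene by -0.14. SOX2, SOX5 and SOX21 had 0 counts in both MYCL libraries and SOX6 had 0 and 5, so that the MYCL vector gave no detectable rise of these 4 genes. The limit for a count of 0 was 0.171 and 0.181 CPM in the MYCL libraries, far below the 103 and 98.5 CPM of SOX2 in shCtrl cells.

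SOX9 was at 5.01 and 4.80 CPM in control and at 8.89 and 6.70 CPM in MYCL libraries, so the groups were apart. Its log2 fold change was 0.68 ± 0.21 (95% interval 0.19 to 1.16; edgeR adjusted p = 0.0371), which is 1.60-fold higher. This call was lost with DESeq2 (adjusted p = 0.0574), on log2(TPM + 1) with limma (adjusted p = 0.214), and in edgeR without control replicate 1 (0.0842), control replicate 2 (0.0959) or MYCL replicate 1 (adjusted p = 0.178), where the fold change fell to 0.46. SOX9 was higher with MYCL under all alternatives that gave it a value.

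The SOXC genes SOX12, SOX4 and SOX11 did not pass both thresholds in C4-2B cells. SOX12 went from 54.9 and 56.8 CPM to 41.9 and 45.2 CPM, a log2 fold change of -0.35 ± 0.08 with an edgeR adjusted p of 0.00988, under the fold minimum. SOX4 was at 177 and 181 CPM in control and at 177 and 138 CPM in MYCL libraries, so its log2 fold change of -0.18 (edgeR adjusted p = 0.243) depended on the MYCL library. Without MYCL replicate 1 it was -0.37 (edgeR adjusted p = 6.24e-04, still under the fold minimum) and without MYCL replicate 2 it was -0.0062 (adjusted p = 0.961). SOX11, at 1.57 to 2.34 CPM in the 4 libraries, had a difference of -0.06 with a 95% interval of -0.86 to 0.74 (edgeR adjusted p = 0.912).

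Of the SOXD genes SOX13 was tested, at 12.2 and 12.4 CPM in control and 15.8 and 12.8 CPM in MYCL libraries (log2 fold change 0.22 ± 0.14, edgeR adjusted p = 0.246). Markers of other cell types shifted in this comparison as well: CD68, in the leukocyte list, rose by 1.53, from 11.4 and 14.3 to 34.3 and 39.2 CPM, while PTPRC was at 0 counts in all 4 libraries and CD3E at 0 to 2. COL1A1 rose by 0.74, with a fibroblast sum of 11.5 to 13.9 CPM in control and 20.1 to 20.96 CPM in MYCL libraries, and KRT14, the basal keratin tested, rose by 1.78, from 0.260 and 0.666 to 1.77 and 1.33 CPM. Of the 10 luminal markers, all tested, 2 were called, both lower, among them KLK3 (log2 fold change -0.52). The other 8 were not called and went both ways, with KRT8 at 0.33 and FOXA1 at -0.40, both under the fold minimum. The luminal sum was 4984 to 5052 CPM in control and 4198 to 4300 CPM in MYCL libraries, and none of the 2 neuroendocrine and 2 endothelial markers tested was called. Their part in the SOX9 difference was not tested.

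**Figure D3:**
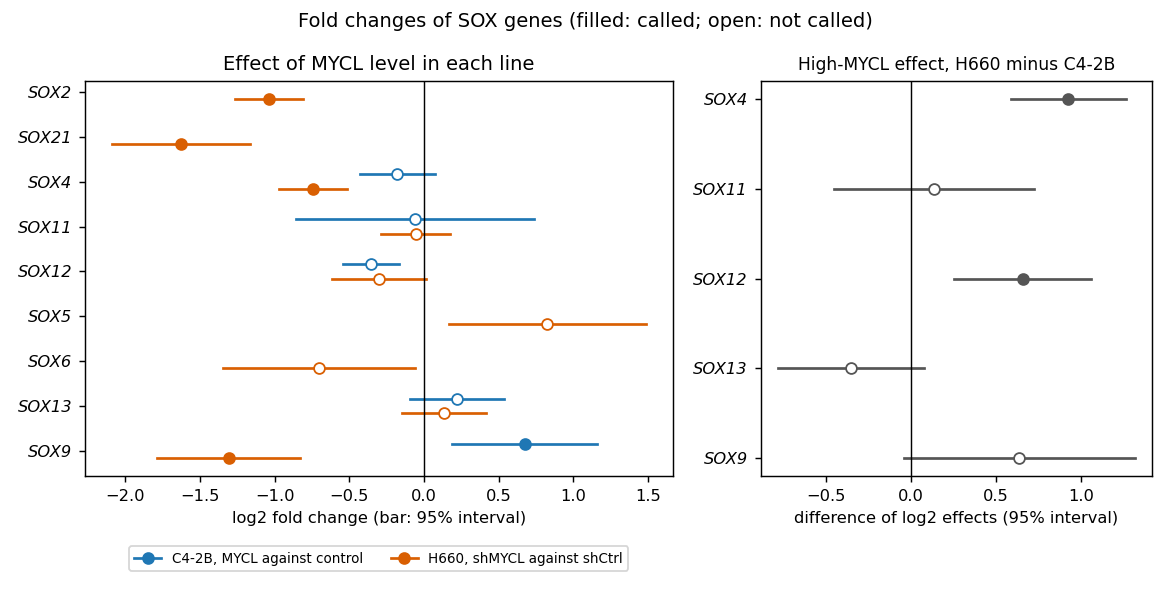
Left, log2 fold change (horizontal axis) of each SOX gene for MYCL expression in C4-2B (blue) and MYCL knockdown in NCI-H660 (orange); right, difference between the lines of the high-over-low MYCL effect for the 5 genes tested in both. Bars are 95% intervals, and filled points were called: 4 decreases with knockdown, SOX9 with MYCL expression, and SOX4 and SOX12 in the difference.

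To ask whether a SOX gene responded differently to MYCL in the 2 lines, the log2 ratio of high over low MYCL (shCtrl over shMYCL, and MYCL over control) was compared between them in a single fit of the 8 libraries. The line and the direction of the perturbation cannot be told apart in this difference. It was called for 2 of the 5 members tested in both lines, both with the larger ratio in NCI-H660, where 17.9% of 19605 genes were called (8.33% in that direction and 9.59% in the other). Of all called genes, 46.5% were in that direction by edgeR and 64.3% with log2(TPM + 1) values, which shifted the median gene by 0.11.

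For SOX4 the difference was 0.93 ± 0.16 (SE; edgeR adjusted p = 0.00134), from a high-over-low ratio that was positive in NCI-H660 (shMYCL against shCtrl -0.74) and near 0 in C4-2B (-0.18, not called). For SOX12 it was 0.66 ± 0.19 (edgeR adjusted p = 0.0250), and this call was lost without any of 5 single libraries, C4-2B control 1, C4-2B control 2, C4-2B MYCL 1, shCtrl 2 or shMYCL 1 (adjusted p 0.0524 to 0.107). SOX9, higher with more MYCL in both lines, had a difference of 0.64 with a 95% interval of -0.05 to 1.32 (edgeR adjusted p = 0.183). Neither SOX11 (0.13, adjusted p = 0.819) nor SOX13 (-0.35, adjusted p = 0.246, both edgeR) was called.

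The 10 other SOX genes looked up were barely read. SOX3, SOX14 and SOX17 were at 0 counts in all libraries, and the highest count of the rest was 28. SOX7 and SOX15 passed the filter in NCI-H660 cells. SOX7 had 2 and 4 counts with shCtrl and 11 and 10 with shMYCL (edgeR adjusted p = 0.0627), and SOX15 had 16 and 11 against 18 and 28 (edgeR adjusted p = 0.185), so neither was called. Between the lines SOX7 was called higher in NCI-H660 on 6 counts against 0, too few for a fold.

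Partners and targets of SOX factors, with some Wnt pathway genes, were then described from 4 lists. Calls among them on knockdown are read against the 16.2% of all genes called (7.18% higher and 8.99% lower). Among 22 SOX2 partners and progenitor factors, 12 were tested on knockdown, of which 3 rose and 3 fell, with a median of -0.05 against -0.0029 over all genes. POU3F2, a POU factor that pairs with SOX2 in neural cells, fell by 0.88 on the log2 scale, from 45.2 and 43.5 to 25.6 and 22.8 CPM. PROM1, which encodes the stem cell antigen CD133, fell by 2.42, from 76 and 34 to 9 and 9 counts, and ZIC2, a neural zinc finger factor, fell by 0.63. PAX6, which partners SOX2 in the eye, was called higher by 3.94 on 0 and 2 against 12 and 18 counts, NES, the progenitor filament nestin and a SOX2 target, rose by 0.86 from 163 in both libraries to 286 and 308 CPM, and LIN28B, a let-7 inhibitor, rose by 0.64. NES and SOX2 thus moved in opposite directions.

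Among 12 targets of SOX4 and SOX11, 10 were tested on knockdown, of which 2 rose and 4 fell, with a median of -0.11. PTCH1, the Hedgehog receptor (log2 fold change -0.75), FRAT2, an activator of Wnt signaling (-0.68), ADAM10, a membrane protease (-0.66), and DLL1, a Notch ligand (-0.58), were lower. TNC, the matrix protein tenascin-C, rose by 1.76, from 48.7 and 51.5 to 185 and 155 CPM, and EGFR rose by 0.60. Among 17 targets of SOX9, SOX5 and SOX6, mostly cartilage genes, 9 were tested, of which 2 rose and 1 fell, with a median of 0.31. HAPLN1, a cartilage link protein, fell by 2.06 from 105 and 72 to 21 and 16 counts, while COL11A2, a fibrillar collagen chain, and AMH, anti-Mullerian hormone, rose by 1.26 and 1.24. Of 13 beta-catenin and TCF partners and Wnt pathway genes (TCF list), 12 were tested, with a median of 0.05. Of these, 2 rose, the transcription factors TCF7 (1.70) and LEF1 (0.89), and none fell.

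With MYCL expression in C4-2B cells the same lists are read against the 19.9% of all genes called (11.8% higher and 8.12% lower). Of the SOX2 list 9 were tested, with KLF4 higher (0.66), KLF5 (-0.75) and the chromatin remodeler CHD7 (-0.72) lower, and a median of -0.10 against -0.0017 over all genes. Of the SOX4 and SOX11 targets 10 were tested, none rose, and MAP2, a neuronal microtubule protein (-2.66, from 7.15 and 6.31 to 0.854 and 1.27 CPM), and the Wnt receptor FZD5 (-0.83) fell, with a median of -0.12. Of the SOX9, SOX5 and SOX6 targets 6 were tested, TCF4 fell by 1.11, and the median was 0.25. TCF4 here is the gene of that symbol and not TCF7L2, the T-cell factor also called TCF-4, so its place in this list is unsure. Of the TCF list 11 were tested, with a median of -0.22. The corepressor TLE2 (1.42), TCF7L1 (1.34) and the Wnt antagonist NKD1 (0.64) rose, and TLE1 fell by 0.78.

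**Figure D4:**
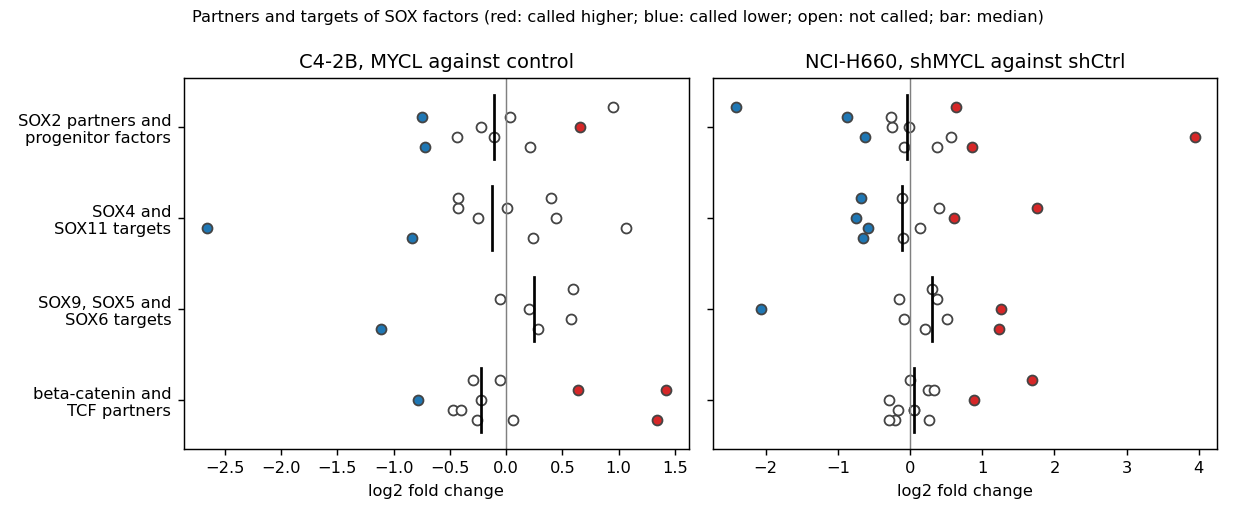
Log2 fold change (horizontal axis) of each tested gene in the 4 lists of SOX partners and targets, for MYCL expression in C4-2B (left) and MYCL knockdown in NCI-H660 (right); vertical bars are list medians, and points are spread vertically for legibility. Red points were called higher and blue points lower, from PROM1 at -2.42 to PAX6 at 3.94 on the right.

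Between the control libraries of the lines, genes of these lists could pass the filter through 1 line alone, so their calls are given as a description. Over all genes tested, 69.8% were called (36.5% higher and 33.3% lower), and calls in most members of a list are read against that. Of the SOX2 list 10 of 13 tested genes were higher and 2 lower in NCI-H660, among them POU3F2 (0.163 and 0 against 45.2 and 43.5 CPM), PROM1 (1 and 0 against 76 and 34 counts) and FABP7, a radial glia marker (0 and 0 against 9 and 16 counts), all higher. Of the SOX4 and SOX11 targets 4 of 11 were higher and 4 lower. TNC (0 and 0.266 against 48.7 and 51.5 CPM), DLL1 (0.520 and 0.933 against 104 and 114 CPM) and MAP2 (7.15 and 6.31 against 210 and 174 CPM) were higher, and TEAD2, a Hippo pathway factor, was lower (7.67 and 7.64 against 0.112 and 0.153 CPM).

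Of the SOX9, SOX5 and SOX6 targets 8 of 12 were higher and 3 lower. HAPLN1 (0 and 0 against 105 and 72 counts), COL9A1 (0 and 0 against 15 and 8 counts) and COL11A1 (1 and 1 against 32 and 31 counts) were higher. TCF4, whose place in this list is unsure, was lower (101 and 104 against 2 and 1 counts). Of the TCF list 9 of 13 were higher and 2 lower. TLE4 (8 and 1 against 158 and 126 counts), LGR5 (1 and 0 against 11 and 21 counts) and LEF1 (2.70 and 2.22 against 29.8 and 25.8 CPM) were higher. NKD1 (186 and 189 against 2 and 0 counts) was lower.

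The genes whose profile was most like that of a SOX gene were found as those with the smallest root mean square difference of centered log2 CPM over the 8 libraries, among 16778 genes with a symbol. The 8 points come from 4 groups in 2 lines, so a gene that differs between the lines in the same way is alike by this measure, and the values are a description. SOX2 was closest to SFRP5, which encodes a secreted Wnt antagonist (difference 0.19, r = 1.00), and ANOS1, which encodes anosmin (0.20). SFRP5 was at 0 in the C4-2B libraries, at 104 and 115 CPM with shCtrl and at 54.3 and 60.4 CPM with shMYCL, close to the SOX2 values in each group. SOX21 was closest to GFRA1, a GDNF co-receptor (0.17), and NDNF, a secreted neurotrophic factor (0.18).

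SOX4 was closest to LIFR, the receptor of leukemia inhibitory factor (0.09), and the histone gene H4C5 (0.11). LIFR was at 86.9 and 82.6 CPM in C4-2B control, 84.9 and 66.8 in C4-2B MYCL, 580 and 457 in shCtrl and 331 and 316 CPM in shMYCL libraries, and so shared with SOX4 the lower value of the second MYCL library. SOX11 was closest to MLLT11 (0.13) and TRHDE-AS1 (0.14), SOX5 to the potassium channel gene KCNJ3 (0.13) and LINC01116 (0.15), and SOX6, with low counts, to LINC02484 (0.37) and NAV2-AS1 (0.45). SOX9, SOX12 and SOX13 spanned 1.28, 1.08 and 1.55 on the log2 scale between group means, under the minimum of 2 set for this description.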

How the data were processed

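RNA sequencing libraries (8, in 4 groups of 2) were made by poly(A) enrichment with paired-end Illumina reads. The authors deposited estimated counts for 78691 genes and TPM values for 65535 genes. Of non-zero counts, 22.4% are not whole, at a tolerance of 0.01. Their methods describe TPM as counts divided by Ensembl gene length and scaled to a fixed sum. TPM per count did not scale alike across genes, however. From shCtrl replicate 1 to 2, SOX2 went from 1833 to 1930 counts and from 80.0 to 72.6 TPM. SOX5 went from 48 to 37 counts and from 0.989 to 0.537 TPM. The length used was thus not the same in every library for each gene. The build is hg38 per the labels; aligner, counter and annotation release are not given in the sources used here. Counts were rounded and tested with edgeR 4.0.16 (R 4.3.3; TMM, filterByExpr, quasi-likelihood test) over all genes, per line for the comparisons within a line and over 8 libraries otherwise. Biological coefficients of variation were 0.083 (C4-2B), 0.097 (NCI-H660) and 0.093 (all 8 libraries).

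The SOX members, the gene lists and the rule for named genes were chosen with earlier results of these data known. Named genes are MYCL, the SOX genes, up to 4 called genes of each list with the largest fold change, and 2 genes most like a member whose group means span at least 2 on the log2 scale. Lists cover SOX2 partners, SOX4 and SOX11 targets, SOX9, SOX5 and SOX6 targets, and TCF partners with Wnt pathway genes. Marker lists are luminal, neuroendocrine, basal, fibroblast, leukocyte and endothelial. Some genes of the lists are not reported here.

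Library totals were 15177071 to 32344170 counts, and a count of 0 allows up to 3. Labels call only part of the libraries biological replicates, so p-values measure the spread between these libraries, and an exact permutation test of 2 against 2 cannot go below 0.33. Replicates differed by more than sampling noise. Replicate numbers within a line did not deviate together (r = 0.0069 in C4-2B and 0.0054 in NCI-H660). Alternatives were DESeq2 1.42.0, RLE size factors, other filters, other fold minima, another set of libraries in the fit, a replicate block, limma 3.58.1 on TPM values and leaving out each library. The edgeR steps were tested on simulated data. Positions and exons are from GENCODE on GRCh38 and upstream sequences from RefSeq on GRCh38.p14.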

Additional observations from a re-analysis of the deposited data

Results flagged for a closer look

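The high-over-low MYCL effect differed between the lines for 2 SOX genes by the test of the difference itself. For SOX4 the difference was 0.93 ± 0.16 on the log2 scale (edgeR adjusted p = 0.00134), over 2 libraries per group. For SOX12 it was 0.66 ± 0.19 (edgeR adjusted p = 0.0250). In both, the ratio of high over low MYCL was larger in NCI-H660 than in C4-2B cells, and cell line, vector and direction of the perturbation cannot be told apart. With single libraries left out, the difference ranged from 0.74 to 1.11 for SOX4 and from 0.44 to 0.86 for SOX12. The SOX12 call depended on single libraries, as given above, and SOX12 was called in neither line alone. Groups of 2 libraries were too small to tell which library of a group is outlying.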

How the results depend on the processing

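Of the values of single SOX genes, 313 kept their direction and side of the threshold under an alternative, 21 lost the call, 3 gained it and 6 changed sign. The count of 1 called SOX gene for MYCL expression in C4-2B was 0 with DESeq2, 0 on all 3 TPM settings (log2(TPM + 1), log2(TPM + 0.1) and log2(TPM + 1) without a filter), 0 at a minimum log2 fold change of 1, 2 without a minimum, and 0 to 1 without single libraries. The count of 4 for knockdown was 0 on log2(TPM + 1) without a filter, where 1 of 29413 genes was called, and 4 to 5 without single libraries. The count of 5 between the lines was 3 at a minimum of 1 and 5 without any single library. The count of 2 for the difference of effects was 0 on log2(TPM + 1) without a filter, 0 at a minimum of 1 and 1 to 2 without single libraries; without a filter SOX4 had a limma adjusted p of 0.0539. Changes of sign were in SOX11 in C4-2B, at 0.14 without control replicate 1 and 0.20 without MYCL replicate 2, in NCI-H660 without shCtrl replicate 1, at 0.05 for SOX11 and -0.00036 for SOX13, and in the difference of SOX11, at -0.08 without C4-2B control replicate 1 and -0.13 without C4-2B MYCL replicate 2. Over all left-out libraries, SOX11 ranged from -0.37 to 0.20 in C4-2B, from -0.15 to 0.053 on knockdown and from -0.13 to 0.44 in the difference, and SOX13 on knockdown from -0.00036 to 0.29. None of these was called. The cause of these changes was not tested.

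With the replicate number as a block, the counts of called SOX genes were 1 in C4-2B, 5 on knockdown (SOX5 added, edgeR log2 fold change 0.84, adjusted p = 0.0457), 5 between the lines and 2 for the difference. The replicates share only a number, with 2 pairs per line, and the block changed no other call. Depth limits SOX2, SOX5, SOX6 and SOX21 in C4-2B, where 4 libraries held at most 7 counts of any of them. A single library left in an arm was assumed to vary like the others. On TPM the median of all genes moved by -0.14 to -0.16 in C4-2B and by 0.52 to 0.62 between the lines with the filter, and by 0.11 to 0.12 in the difference.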
